A study of Homo sapiens with 8 samples.

Results

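YAP and TAZ are co-activators of transcription that sense the shape, crowding and substrate of a cell, and their activity is commonly read from a short panel of target genes. The panel described here comprised 10 genes, CCN1, CCN2, ANKRD1, AMOTL2, AJUBA, AXL, CRIM1, NT5E, F3 and FJX1. They were taken as a list of YAP/TAZ readouts, chosen with earlier results of these data known. A gene was kept where it had 10 or more counts in 2 or more libraries, a filter on abundance that did not use the difference between groups. All 10 genes passed this filter, as did 13943 of the 38032 gene identifiers in the files.

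In the Hippo pathway, the kinases LATS1 and LATS2 phosphorylate YAP and TAZ (the latter encoded by WWTR1) and thereby hold them in the cytoplasm or send them to degradation. When they are not phosphorylated, YAP and TAZ enter the nucleus and bind TEAD factors, through which they switch on their targets. Spread cells under actin tension are known for high YAP/TAZ activity and crowded, rounded cells for low activity, and in the liver the pathway is known for its control of organ size and of hepatocyte identity.

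The cells were HepG2, an immortalised line that originated in a human hepatocellular carcinoma. All cultures came from a pool that had been propagated on flat culture-ware. In the 2D-primed group (4 libraries) cells were kept for 8 days on flat tissue culture plastic, and in the 3D-primed group (4 libraries) for 8 days on Alvetex Strata, a porous polystyrene scaffold on whose surface the cells form layers. Both groups received minimal essential medium with glutamine and foetal bovine serum and were released with trypsin before lysis, and polyadenylated RNA was sequenced. The scaffold was seeded with more cells per insert than the flat well, so that the substrate and the seeding density cannot be told apart. The sources used here do not say whether the 4 libraries of a group came from separate passages, and the p-values measure the spread between these libraries, which may in part be technical.

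The files held 21599630 to 25019499 estimated counts per 2D-primed library and 22153063 to 27844077 per 3D-primed library. All 12 hepatocyte markers examined were detected, with a summed level of 74256 to 80566 CPM (counts per 1000000 counts of the library, with library sizes scaled by TMM) in 2D-primed and 105951 to 118675 CPM in 3D-primed cells, and 10 of the 12 were called higher and 2 lower in 3D-primed cells by edgeR's quasi-likelihood test, against 32.4% and 31.6% of all genes tested. The 4 leukocyte markers together stayed at or under 0.504 CPM in every library, with CD3E at 0. The 7 fibroblast markers summed to 11.0 to 12.2 CPM on flat plastic and 15.1 to 18.1 CPM on the scaffold, with THY1 at 0 and 5 of the 7 under 1 CPM in every library. Most of this sum was PDGFRB, at means of 10.7 and 16.4 CPM, while COL1A1 went the other way, from 0.969 to 0.0703 CPM. The 5 endothelial markers summed to 5.66 to 7.76 CPM and 4.16 to 5.70 CPM, respectively. Of these, CDH5 was called lower on the scaffold (means of 4.73 and 1.59 CPM) and VWF higher (1.11 and 1.71 CPM). PECAM1 was not called (1.03 and 1.41 CPM), and KDR and TEK stayed under 1 CPM in every library. Mitochondrially encoded genes took 1.4 to 1.81% of counts in 2D-primed and 2.47 to 2.98% in 3D-primed libraries. The part of these marker sums and of the mitochondrial share in the results was not tested.

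The sequence before the start site was examined because YAP and TAZ reach their targets through TEAD, whose core motif was searched as GGAATG on the strand of the gene and, for a match on the opposite strand, as CATTCC. Promoters were taken from RefSeq (GRCh38.p14), where 8 of the 10 genes matched and had 11 annotated start sites. CCN1 and CRIM1 were not matched. Within 250 bases before and 50 bases after the start, the TEAD motif was found on either strand in 5 of the 11 windows, each of a different gene, and 14% of all 35116 promoter windows of that table held it. CCN2, which encodes a secreted matrix-associated protein, had 3 matches, at 169, 104 and 95 bases before its start, and 0.128% of all windows held 3 or more. ANKRD1 had matches at 220 and 128 bases before its start, and AMOTL2, AJUBA and AXL had 1 match each, all at the start numbered 2 in the table, at 69, 59 and 212 bases before it. The start numbered 1 of AMOTL2, AJUBA and AXL held no match, and which start the cells used was not examined. The 250 bases before the start are shown for 3 genes that were lower in 3D-primed cells and hold the motif (CCN2, ANKRD1, AMOTL2), for AJUBA, which holds it and did not pass the test, and for NT5E, which was higher and does not hold it. Capitals mark GGAATG or CATTCC, and each run reads 5′ to 3′ on the strand of the gene.
CCN2, chr6:131951373-131951622, minus strand: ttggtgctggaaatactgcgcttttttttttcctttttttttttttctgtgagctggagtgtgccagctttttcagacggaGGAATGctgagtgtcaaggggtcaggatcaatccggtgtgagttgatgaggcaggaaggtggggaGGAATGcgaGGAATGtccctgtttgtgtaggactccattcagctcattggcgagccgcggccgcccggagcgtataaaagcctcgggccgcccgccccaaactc
ANKRD1, chr10:90921088-90921337, minus strand: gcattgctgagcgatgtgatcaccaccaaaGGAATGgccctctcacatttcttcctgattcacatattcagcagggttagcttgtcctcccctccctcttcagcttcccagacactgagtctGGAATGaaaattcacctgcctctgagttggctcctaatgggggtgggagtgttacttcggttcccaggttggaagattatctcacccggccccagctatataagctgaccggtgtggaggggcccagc
AMOTL2 start 2, chr3:134374448-134374697, minus strand: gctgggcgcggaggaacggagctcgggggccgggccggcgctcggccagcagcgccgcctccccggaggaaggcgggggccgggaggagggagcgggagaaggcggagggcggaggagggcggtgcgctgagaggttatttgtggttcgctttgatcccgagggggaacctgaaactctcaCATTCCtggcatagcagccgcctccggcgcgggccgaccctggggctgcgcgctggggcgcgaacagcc
AJUBA start 2, chr14:22976843-22977092, minus strand: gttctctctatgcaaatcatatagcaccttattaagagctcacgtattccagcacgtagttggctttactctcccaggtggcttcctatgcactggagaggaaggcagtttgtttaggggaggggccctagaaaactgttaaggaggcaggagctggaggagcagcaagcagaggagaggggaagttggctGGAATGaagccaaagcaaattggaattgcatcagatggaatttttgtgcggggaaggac
NT5E, chr6:85449833-85450082, plus strand: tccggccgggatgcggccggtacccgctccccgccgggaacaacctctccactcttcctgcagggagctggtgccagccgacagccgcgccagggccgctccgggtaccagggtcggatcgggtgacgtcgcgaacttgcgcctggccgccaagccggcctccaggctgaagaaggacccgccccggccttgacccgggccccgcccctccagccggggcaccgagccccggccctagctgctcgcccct
A match is a description of the letters and not evidence of binding.

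The same windows were searched on both strands for the CArG box of SRF (CC, then 6 bases that are each A or T, then GG) and for the AP-1 site (TGAGTCA or TGACTCA). None of the 11 windows held a CArG box, which 1.29% of all windows did. An AP-1 site was present in 1 window, that of F3 at 210 bases before the start, against 4.95% of all windows. F3 held no TEAD match, so that no matches of different motifs overlapped.

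Of the 10 targets, 6 were lower in 3D-primed cells, 3 were higher and AJUBA did not pass the test. CCN1, ANKRD1 and AXL had the largest decreases, from 13.6-fold to 6.72-fold, and NT5E and FJX1 the largest increases, 2.54-fold and 2.40-fold. The comparison asked how priming on the scaffold altered each readout, and used edgeR's quasi-likelihood test over all 13943 genes with a threshold of 0.05 on the Benjamini-Hochberg adjusted p. Of all genes tested, 63.9% were called, 32.4% as higher and 31.6% as lower in 3D-primed cells, so that 3 of 10 higher is close to the background and 6 of 10 lower is above it. A called change of at least 2-fold was seen for 7 of the 10 targets and for 11.9% of all genes. The groups did not overlap for 9 of the 10, and for 59.8% of all genes. The median log2 fold change of the targets was -0.97 and their median absolute log2 fold change 1.24, against 0.01 and 0.34 over all genes tested. Because the targets were chosen with earlier results of these data known, these comparisons with all genes are descriptions only. In bulk RNA, fewer cells that express a gene and less RNA of it per cell cannot be told apart.

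**Figure D1:**
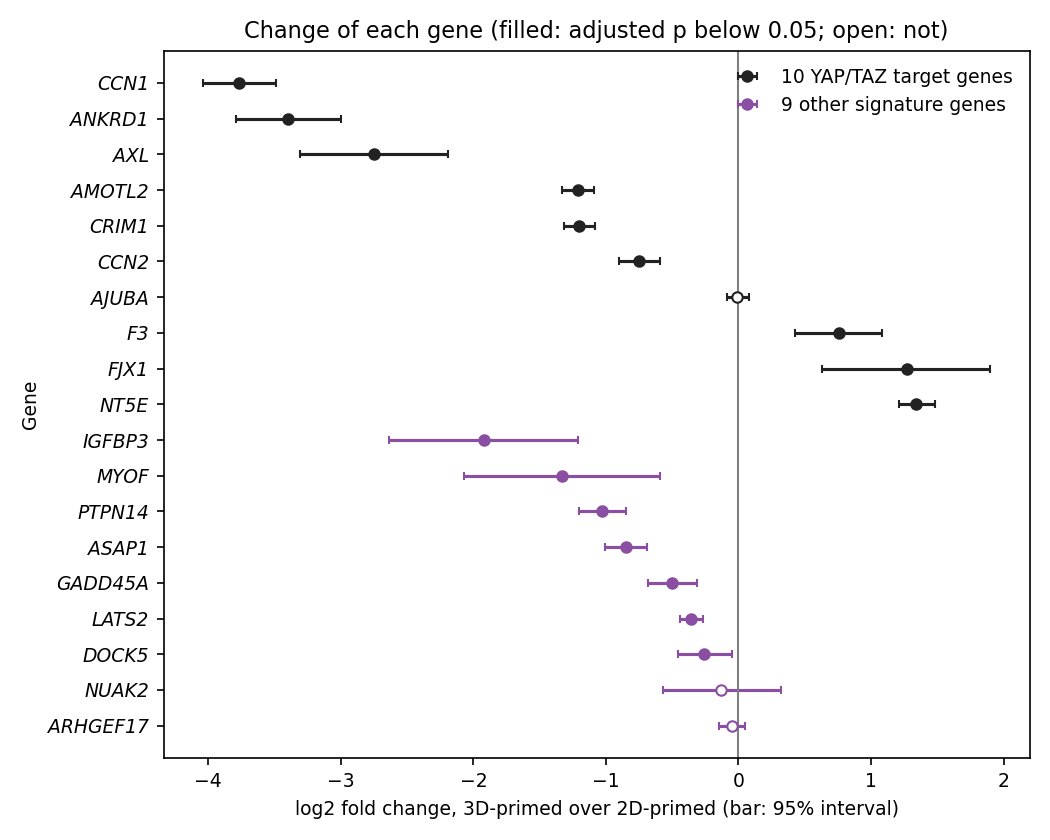
Log2 fold change (3D-primed over 2D-primed, x axis) of each target gene and of the other genes of a YAP/TAZ signature (y axis), with 95% confidence intervals from edgeR's quasi-likelihood fit as bars. The targets run from -3.77 for CCN1 to 1.34 for NT5E, with AJUBA at -0.01, whereas no estimate of the other signature genes lies above 0 (MYOF passed the filter on low counts only through the 2D-primed libraries).

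CCN1 and CCN2 are paralogous secreted proteins of the matrix that bind integrins, and both are standard YAP/TAZ readouts. CCN1 (ENSG00000142871, GRCh38 chr1:85580761-85584589) was at 160.1, 151, 184 and 150.1 CPM in the 2D-primed libraries and at 10.4, 11.1, 15.3 and 10.4 CPM in the 3D-primed libraries. Every 3D-primed library lay far below every 2D-primed library, with replicate 3 the highest of its group in both conditions. The mean fell from 161 ± 15.8 to 11.8 ± 2.38 CPM (SD, n = 4 each), a log2 fold change of -3.77 (SE 0.123, 95% interval -4.04 to -3.49, adjusted p = 1.5e-08, edgeR), or 13.6-fold. These levels rest on 3494 to 4521 counts per 2D-primed and 250 to 428 per 3D-primed library. Among the 8991 genes with a mean of at least 10 CPM, CCN1 had the 4th lowest log2 fold change.

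CCN2 (ENSG00000118523, chr6:131948176-131951372) had the highest level per length of the 10 targets, and was at 826, 782, 767 and 772 CPM on flat plastic and 523, 442, 494 and 414 CPM on the scaffold. The groups did not overlap, but the decrease was much smaller than that of CCN1. The mean fell from 787 ± 27.2 to 468 ± 49.5 CPM, a log2 fold change of -0.75 (SE 0.0693, adjusted p = 6.1e-06, edgeR), or 1.68-fold. The paralogs were also compared as a ratio within each library, which needs no scaling between libraries. The log2 ratio of CCN1 to CCN2 counts was -2.37, -2.37, -2.06 and -2.36 in the 2D-primed libraries and -5.66, -5.32, -5.01 and -5.31 in the 3D-primed libraries. There were thus 4.89 CCN2 counts per CCN1 count on flat plastic and 40.0 on the scaffold. The means differed by -3.03 with groups that did not overlap (two-sided exact permutation test, p = 0.029, the smallest that 4 against 4 libraries can give, and 0.057 after Benjamini-Hochberg adjustment over the 2 ratios computed).

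ANKRD1 (ENSG00000148677, chr10:90912096-90921087) encodes an ankyrin repeat protein of the nucleus and, in muscle, of the sarcomere, and is known to respond to stretch. It was at 76.5, 87.8, 93.9 and 94.5 CPM on flat plastic and at 8.00, 9.21, 11.3 and 4.92 CPM on the scaffold. All 3D-primed libraries were low, and replicate 4 was the lowest of them. The mean fell from 88.2 ± 8.37 to 8.35 ± 2.65 CPM, a log2 fold change of -3.40 (SE 0.176, 95% interval -3.79 to -3.00, adjusted p = 1.5e-07, edgeR), or 10.5-fold. It had the 9th lowest log2 fold change of the same 8991 genes.

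**Figure D2:**
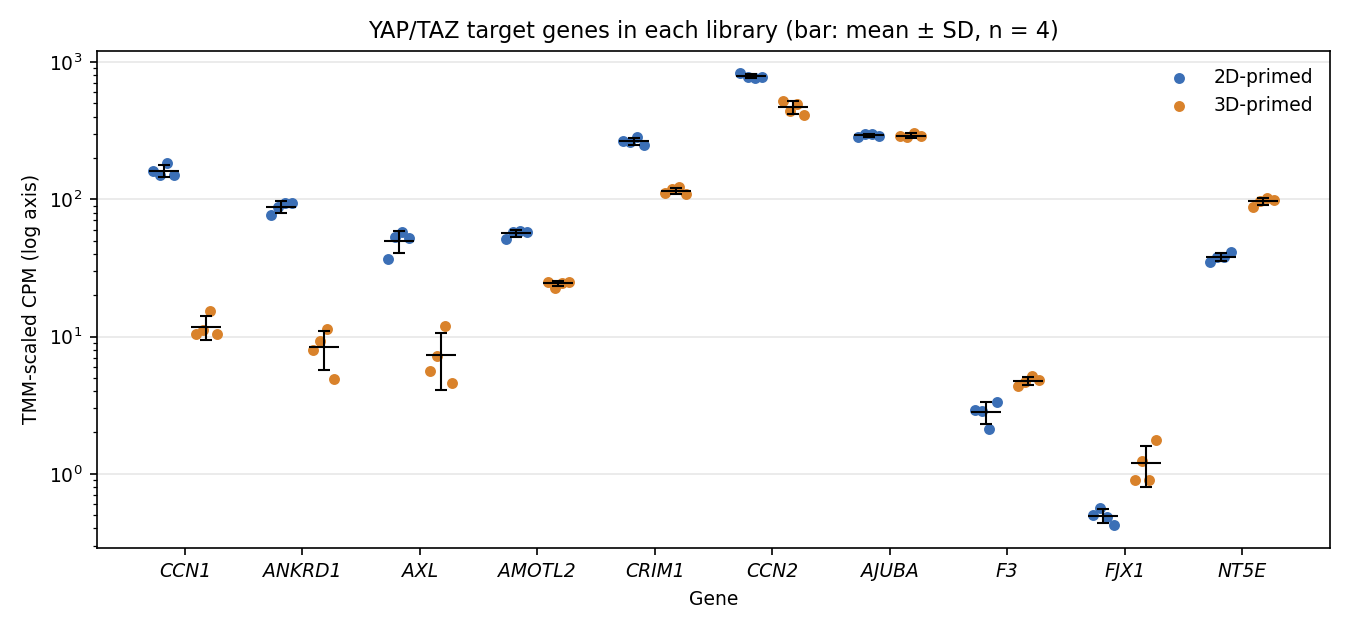
TMM-scaled CPM (log axis) of each of the 10 targets in every library, with 2D-primed and 3D-primed libraries as points in separate colours and bars for mean ± SD of 4 libraries. The groups are apart for every gene except AJUBA, with the widest gap for CCN1 (161 against 11.8 CPM).

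AMOTL2 and AJUBA are targets that feed back on the pathway: AMOTL2, an angiomotin-family scaffold, binds YAP and holds it outside the nucleus, and AJUBA, a LIM-domain protein of cell junctions, restrains LATS kinases. AMOTL2 (ENSG00000114019, chr3:134355347-134375479) was at 51.0, 58.1, 58.8 and 57.3 CPM on flat plastic and 25.1, 22.7, 24.6 and 25 CPM on the scaffold. The 3D-primed libraries were tightly grouped below all 2D-primed libraries. The mean fell from 56.3 ± 3.58 to 24.3 ± 1.14 CPM, a log2 fold change of -1.21 (SE 0.0554, adjusted p = 7.7e-08, edgeR), or 2.31-fold. Its relatives had low counts. AMOTL1 had 21 counts over all 8 libraries and was not tested, and AMOT was at 2.40 ± 0.397 CPM on flat plastic and 1.74 ± 0.395 CPM on the scaffold, a log2 fold change of -0.46 that missed the threshold (adjusted p = 0.068, edgeR).

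AJUBA (ENSG00000129474, chr14:22971177-22982551) was the target that did not pass. It was at 284, 299, 297 and 290.0 CPM on flat plastic and 288, 283, 306 and 287 CPM on the scaffold, and the groups overlapped. The means were 293 ± 6.83 and 291 ± 10.1 CPM, a log2 fold change of -0.01 (SE 0.0382, adjusted p = 0.87, edgeR). Its 95% interval ran from -0.09 to 0.08 on the log2 scale. LIMD1, a LIM-domain relative with a similar role, was at 22 ± 1.25 and 21.1 ± 1.24 CPM, with a log2 fold change of -0.06 (adjusted p = 0.44, edgeR). There were 13.3 AJUBA counts per LIMD1 count on flat plastic and 13.8 on the scaffold, a difference of 0.05 in log2 ratio (two-sided exact permutation test, p = 0.60, also 0.60 after adjustment over the 2 ratios).

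AXL and CRIM1 are membrane proteins, the former a receptor tyrosine kinase for the ligand GAS6 and the latter a protein that binds bone morphogenetic proteins. AXL (ENSG00000167601, chr19:41219223-41261766) was at 36.8, 52.9, 57.5 and 52.3 CPM on flat plastic and 5.58, 7.26, 12 and 4.61 CPM on the scaffold. The groups were well apart, although AXL varied more within each group than most of the other targets, with replicate 1 the lowest in 2D-primed and replicate 3 the highest in 3D-primed cells. The mean fell from 49.9 ± 9.0 to 7.37 ± 3.30 CPM, a log2 fold change of -2.75 (SE 0.251, 95% interval -3.31 to -2.19, adjusted p = 5.6e-06, edgeR), or 6.72-fold. CRIM1 (ENSG00000150938, chr2:36355778-36551135) was at 267, 261, 285 and 247 CPM on flat plastic and 110.5, 118, 123 and 109 CPM on the scaffold. Its libraries were close together within each group and the groups did not overlap. The mean fell from 265 ± 15.6 to 115 ± 6.66 CPM, a log2 fold change of -1.20 (SE 0.0557, adjusted p = 8.0e-08, edgeR), or 2.30-fold.

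The 3 targets that were higher in 3D-primed cells encode proteins of the cell surface or the secretory pathway, as do CCN1, CCN2, AXL and CRIM1, which were lower. NT5E encodes CD73, the surface enzyme that makes adenosine from AMP. NT5E (ENSG00000135318, chr6:85449584-85495791) was at 34.9, 38.1, 37.9 and 41.2 CPM on flat plastic and 88.0, 97.4, 102 and 99.0 CPM on the scaffold, with every 3D-primed library higher than every 2D-primed library. The mean rose from 38.0 ± 2.56 to 96.6 ± 6.04 CPM, a log2 fold change of 1.34 (SE 0.0606, 95% interval 1.21 to 1.48, adjusted p = 7.0e-08, edgeR), or 2.54-fold, which was the 129th highest of the 8991 genes.

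F3 encodes tissue factor, the membrane protein that starts coagulation, and was scarce here. F3 (ENSG00000117525, chr1:94529173-94541759) was at 2.93, 2.85, 2.12 and 3.33 CPM on flat plastic and 4.38, 4.65, 5.13 and 4.84 CPM on the scaffold. Again the groups did not overlap. The mean rose from 2.81 ± 0.507 to 4.75 ± 0.316 CPM on 52 to 79 and 105 to 143 counts per library, a log2 fold change of 0.76 (SE 0.145, adjusted p = 0.0010, edgeR), or 1.69-fold. FJX1, the human relative of a Golgi kinase of Drosophila that acts in Fat and Dachsous signalling, had the lowest level per length. FJX1 (ENSG00000179431, chr11:35618460-35620865) was at 0.504, 0.562, 0.488 and 0.422 CPM on flat plastic and 0.905, 1.24, 0.896 and 1.75 CPM on the scaffold. All 3D-primed values were higher, on only 10 to 13 and 24 to 44 counts per library. The mean rose from 0.494 ± 0.0575 to 1.20 ± 0.400 CPM, a log2 fold change of 1.27 (SE 0.284, 95% interval 0.63 to 1.90, adjusted p = 0.0027, edgeR), or 2.40-fold.

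Some of these genes share genomic sequence with a neighbour. Long non-coding RNAs on the opposite strand overlap exons of CCN2 (LINC01013), AXL and CRIM1 and were not counted in the files. The library kit keeps strand, but the strand setting of the counting is not given in the sources used here. Genes on the same strand whose exons overlap AMOTL2 (RPL39P5) and AJUBA (the read-through gene ENSG00000259132) were counted and had a mean of 0 counts.

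To set the targets side by side, CPM was divided by the length of the representative transcript, which gives a level per length (CPM per kilobase). In 2D-primed cells CCN2 led at 337 ± 11.6 CPM per kilobase, followed by CCN1 at 70.8 ± 6.92 and AJUBA at 70.2 ± 1.64, whose libraries overlapped. ANKRD1 at 49.3 ± 4.67 and CRIM1 at 43.7 ± 2.58 came next and overlapped each other, as did AMOTL2 at 11.6 ± 0.735, NT5E at 10.7 ± 0.719 and AXL at 10.6 ± 1.91. F3 at 1.22 ± 0.221 and FJX1 at 0.205 ± 0.0239 were last and were separate from their neighbours. In 3D-primed cells CCN2 was still first at 200.2 ± 21.2 CPM per kilobase. AJUBA at 69.8 ± 2.42, NT5E at 27.1 ± 1.70 and CRIM1 at 19.0 ± 1.1 followed, each separate from the next. CCN1 came after CRIM1 at 5.18 ± 1.04 and overlapped AMOTL2 at 5.00 ± 0.233, which overlapped ANKRD1 at 4.66 ± 1.48. F3 at 2.07 ± 0.138 overlapped AXL at 1.56 ± 0.700, and FJX1 was last at 0.498 ± 0.166. The place of CCN1 depends on the length used: with the length of all merged exons it came after AJUBA (49.7 ± 1.16) and ANKRD1 in 2D-primed cells, at 43.6 ± 4.26, and after ANKRD1 and AMOTL2 (3.76 ± 0.175) in 3D-primed cells, at 3.19 ± 0.643, overlapping ANKRD1 and AMOTL2 respectively.

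**Figure D3:**
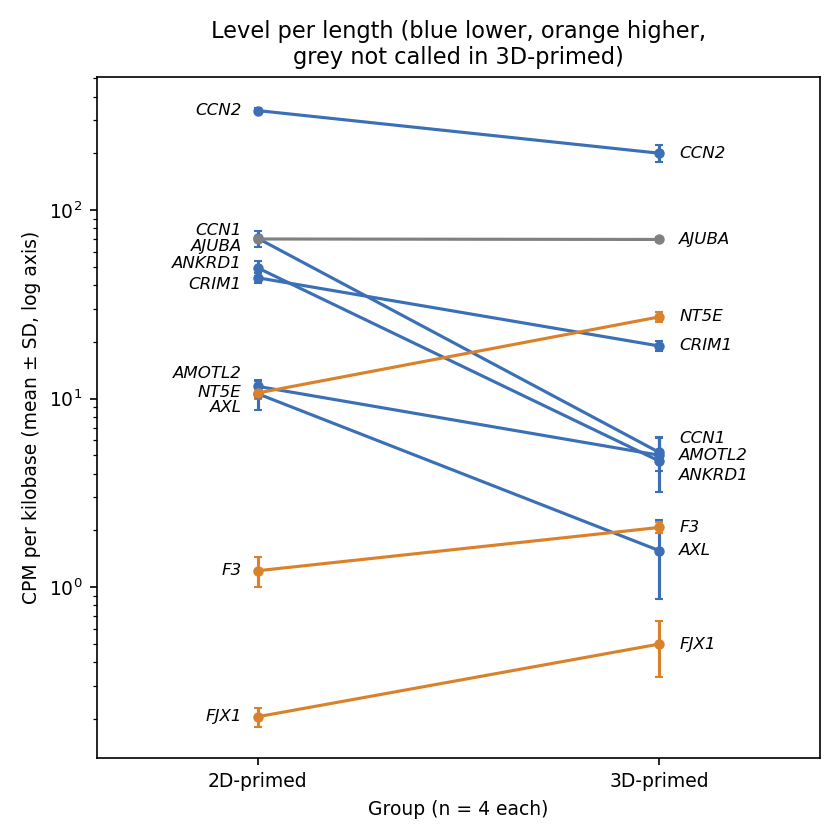
Level per length (TMM-scaled CPM per kilobase of the representative transcript, log axis) of each target in 2D-primed and 3D-primed cells, as the mean of 4 libraries ± SD with a line joining the groups, blue for genes called lower, orange for higher and grey for AJUBA. CCN2 is the highest in both groups, and CCN1 goes from 70.8 to 5.18 CPM per kilobase while NT5E goes from 10.7 to 27.1.

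Spread between libraries of a group differed among the targets. The coefficient of variation in 3D-primed cells was 44.8% for AXL, 33.4% for FJX1, 31.7% for ANKRD1 and 20.1% for CCN1, whereas AJUBA (3.47%), AMOTL2 (4.67%) and CRIM1 (5.78%) varied little. In 2D-primed cells it was 18.1% for F3 and 18% for AXL and lower for the other 8. FJX1 had only 24 to 44 counts per 3D-primed library, and F3 had 52 to 79 per 2D-primed library. Counting noise is larger at such counts, and its part in their spread was not tested. The highest 3D-primed library was 2.61 times the lowest for AXL and 2.29 times for ANKRD1. Of the 6 targets that were lower in 3D-primed cells, 3D-primed replicate 3 was the highest of its group in 4 and replicate 4 the lowest in 4.

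**Figure D4:**
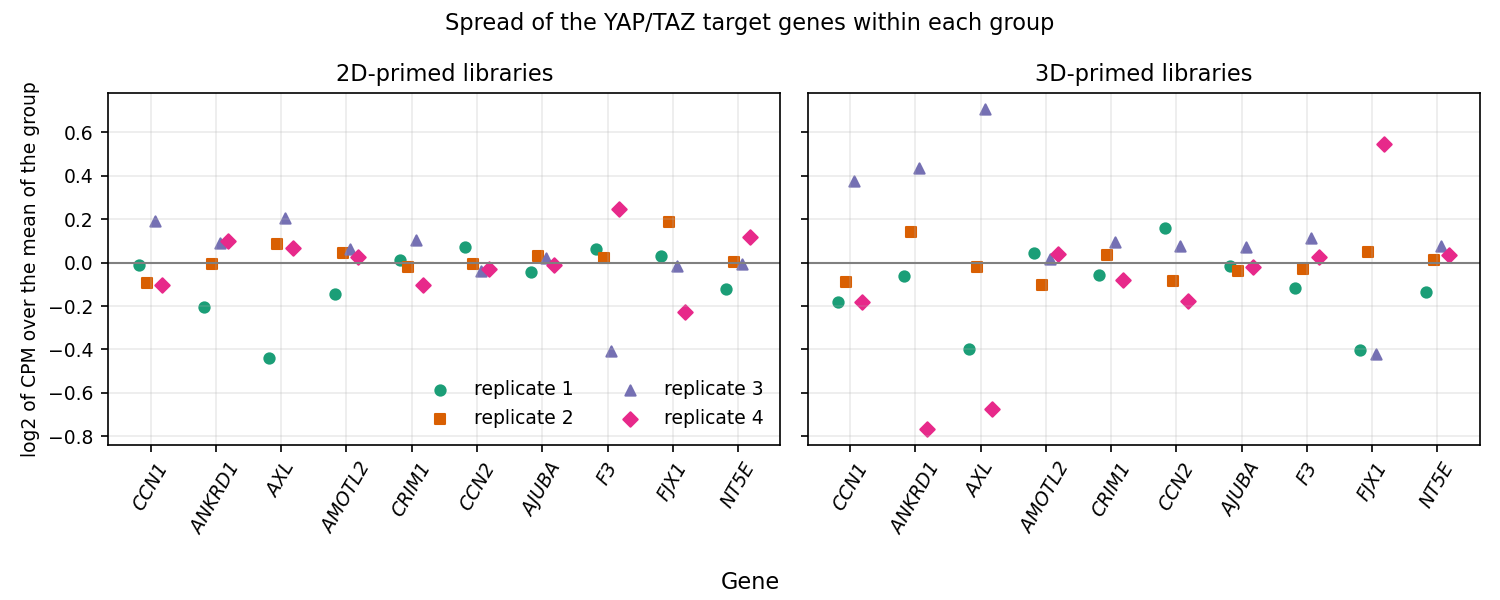
Log2 of each library's CPM over the mean of its own group (y axis) for each target (x axis), with the 2D-primed libraries in the left panel, the 3D-primed in the right and replicates told apart by colour and shape. AXL, FJX1 and ANKRD1 spread most among the 3D-primed libraries, with coefficients of variation of 44.8%, 33.4% and 31.7%, and AJUBA spreads little in either group. FJX1 had only 24 to 44 counts per 3D-primed library.

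The genes whose pattern over the 8 libraries was nearest to that of 3 targets were listed, by the root mean square difference of centred log2 CPM among 8990 other genes with a mean of at least 10 CPM. For CCN1 these were L1CAM, an adhesion molecule (0.151), the annexin ANXA3 (0.181) and MISP, an actin-binding protein of the spindle (0.192). For ANKRD1 they were MISP (0.142), ADM, which encodes the peptide hormone adrenomedullin (0.166), and LOXL3, a lysyl oxidase family member (0.209). For CCN2 they were ID3, an inhibitor of basic helix-loop-helix factors (0.051), the annexin ANXA4 (0.0604) and the lysosomal protease CTSC (0.063). The profiles were centred over both groups together, so the distance largely reflects the size of the difference between groups. For the neighbours of CCN1 the log2 fold changes were -3.73, -3.68 and -3.49, and for those of ANKRD1 -3.49, -3.17 and -3.58. For the neighbours of CCN2 they were -0.83, -0.82 and -0.72. These distances are descriptions, and all 10 targets and their neighbours were measured in the same libraries.

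Of 13 further genes of a widely used YAP/TAZ signature, 9 were tested. MYOF passed the filter on low counts only through the 2D-primed libraries, which favoured a difference, and was left out of the next count. Of the 8 that reached 10 counts in 2 libraries of each group, 6 were lower, 0 were higher and 2 did not pass, with a median log2 fold change of -0.43. Of all genes that reached this in each group, 32.0% were called lower and 33.3% higher, and their median was 0.02. This list and those that follow were also chosen with earlier results of these data known, so the comparisons with all genes are descriptions only. IGFBP3, which binds insulin-like growth factors, was at 191, 235, 328 and 279.6 CPM on flat plastic and 61.7, 70.4, 111 and 29.6 CPM on the scaffold. As for AXL, replicate 3 was the highest and replicate 4 the lowest of the 3D-primed libraries. Its mean fell from 258 ± 59.1 to 68.1 ± 33.4 CPM, a log2 fold change of -1.92 (adjusted p = 4.0e-04, edgeR). The phosphatase PTPN14, which binds YAP, went from 34.2 ± 2.68 to 16.8 ± 1.57 CPM (edgeR, log2 fold change -1.03 with adjusted p = 1.6e-06). ASAP1, an ARF GTPase-activating protein of focal adhesions, went from 83.7 ± 1.85 to 46.5 ± 5.16 CPM (edgeR, log2 fold change -0.85 with adjusted p = 3.2e-06).

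The remaining signature genes had smaller changes or low counts. MYOF, a membrane repair protein, was at 0.670 ± 0.175 CPM on 9 to 19 counts per 2D-primed library and at 0.266 ± 0.0660 CPM on 5 to 9 counts per 3D-primed library. For the stress gene GADD45A the log2 fold change was -0.50 (adjusted p = 4.4e-04), the kinase LATS2, itself a brake on YAP and TAZ, of -0.36 (adjusted p = 1.8e-05) and the exchange factor DOCK5 of -0.26 (adjusted p = 0.032, groups overlapping), all by edgeR. ARHGEF17 and NUAK2 did not pass, with log2 fold changes of -0.05 and -0.13 (adjusted p = 0.33 and 0.60, edgeR). FOXF2, CCDC80, TGFB2 and RBMS3 had 5, 2, 5 and 32 counts over all libraries and were not tested.

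Upstream of the targets, 22 of 23 Hippo pathway genes were tested, of which 12 were lower, 0 were higher and 10 did not pass, with a median log2 fold change of -0.46, where 31.6% of all genes tested were called lower. YAP1 went from 203 ± 5.79 to 139 ± 14.1 CPM (edgeR, log2 fold change -0.54 with adjusted p = 3.9e-05). WWTR1 went from 194 ± 12.3 to 92.3 ± 5.61 CPM (edgeR, log2 fold change -1.07 with adjusted p = 1.9e-07). Of the TEAD factors, TEAD1 went from 99.4 ± 4.52 to 49.8 ± 2.68 CPM and TEAD4 from 82.0 ± 4.82 to 41.4 ± 1.02 CPM, with log2 fold changes of -1.0 and -0.99 (adjusted p = 1.2e-07 and 1.0e-07, edgeR). TEAD2 and TEAD3 did not pass, with log2 fold changes of 0.17 and 0.06 (adjusted p = 0.056 and 0.33, edgeR). These are levels of mRNA and say nothing of where the YAP and TAZ proteins were.

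**Figure D5:**
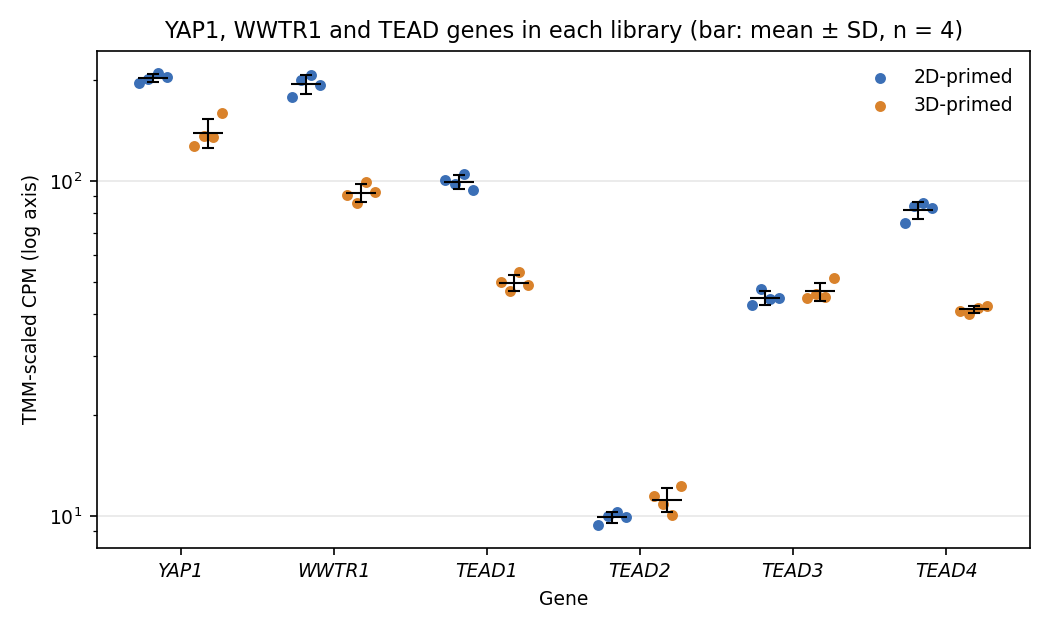
TMM-scaled CPM (log axis) of YAP1, WWTR1 and the 4 TEAD genes in every library, with bars for mean ± SD of 4 libraries per group. YAP1, WWTR1, TEAD1 and TEAD4 are lower in all 3D-primed libraries, and the groups overlap for TEAD2 and TEAD3.

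The SRF targets and the immediate early genes, whose regulators can also act on some of these targets, were counted in the same way. SRF with its actin-sensing co-factors can also drive CCN1, CCN2 and ANKRD1. The SRF list held actin-regulated targets only, and the immediate early genes were counted as a separate list. Of 15 such SRF targets that reached 10 counts in 2 libraries of each group, 13 were lower, 0 were higher and 2 did not pass. Their median log2 fold change was -1.09. Over all genes that reached this count in each group, 32.0% were called lower and 33.3% higher, with a median of 0.02. CNN1, with 5 to 16 counts per 2D-primed and 4 to 8 per 3D-primed library, passed the filter only through the 2D-primed group and was left out. The SRF targets with the smallest p were TPM4, a tropomyosin (476 ± 20.3 to 163 ± 2.18 CPM, log2 fold change -1.55), and the cytoplasmic actins ACTB (3419 ± 175 to 1213 ± 26.0 CPM, -1.50) and ACTG1 (6167 ± 87.3 to 2324 ± 143 CPM, -1.41). Their adjusted p-values were 5.1e-09, 7.9e-09 and 1.4e-08 (edgeR).

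CCN1 is also an immediate early gene, which serum or the handling of cells can induce within the hour, and all cultures were trypsinised before lysis. Of 14 other immediate early genes that reached 10 counts in 2 libraries of each group, 7 were lower, 3 were higher and 4 did not pass, with a median log2 fold change of -0.62. That is 50.0% lower and 21.4% higher, against 32.0% and 33.3% of all genes that reached this count in each group. EGR3, with 4 to 15 counts per 2D-primed and 1 to 5 per 3D-primed library, passed only through the 2D-primed group, and with it the median of the immediate early genes was -1.25. ZFP36, NR4A1 and DUSP1, which had the smallest p, were lower, with log2 fold changes of -1.64, -1.78 and -1.63 (adjusted p = 6.8e-08, 1.3e-07 and 5.5e-07, edgeR). The 3 that were higher, named after their values were seen, were EGR1, IER2 and JUNB, with log2 fold changes of 1.66, 0.87 and 0.31 (adjusted p = 1.8e-04, 3.5e-05 and 0.043, edgeR). Each was highest in 3D-primed replicate 4, where EGR1 was at 226 CPM against 115 to 142 CPM in the other 3D-primed libraries, and where ANKRD1 and AXL were lowest. The part of SRF or of immediate early induction in the levels of the targets was not tested.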

How the data were processed

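Polyadenylated RNA of 8 HepG2 cultures was sequenced, 4 2D-primed and 4 3D-primed, and groups were taken from the labels. The authors deposited estimated counts (expected counts) per gene for each library, which they made with Salmon and tximport on GRCh38. These are whole numbers with no scaling for depth. The tximport setting on transcript length is not given in the sources used here, and for a gene whose isoform use shifts it could move the level.

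Symbols and transcript lengths came from GENCODE 44, which matched all 10 targets. Genes reaching 10 counts in 2 or more libraries were compared with glmQLFit and glmQLFTest of edgeR 4.0.16 in R 4.3.3 after TMM scaling, with Benjamini-Hochberg adjustment over all genes tested. The standard error is the log2 fold change divided by the square root of F. The common biological coefficient of variation was 0.0934, and with at least 21599630 counts per library the precision of the scarce genes F3 and FJX1 is limited by their counts. Within-library ratios were compared by exact permutation over libraries. Only the calls of edgeR and DESeq2 were tried on simulated counts, in which far fewer genes changed than were called here. The other steps were not tried in this way.

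The alternatives were DESeq2 1.42.0, median-of-ratios, total-count and upper-quartile scaling, no filter, a filter of 10 counts in all 8 libraries, omission of each library and a replicate block. Named were all targets, the other signature genes, YAP1, WWTR1, the TEAD genes, the paralogs AMOT, AMOTL1 and LIMD1, the 3 genes of each other list with the smallest p, and the nearest genes by pattern. The targets and lists were chosen with earlier results of these data known. Other assays of the study were not analysed here.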

Additional observations from a re-analysis of the deposited data

Results flagged for a closer look

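A library was flagged where its gap to the nearest of the other 3 libraries of its group was a large enough part of the range of the group to pass Dixon's test at its 95% critical value. Of 54 groups of 4 libraries examined 5 were flagged, and chance flags about 1 in 20. CCN1 was high in 3D-primed replicate 3, at 15.3 CPM against 10.4 to 11.1 CPM in the others. ASAP1 was low in 3D-primed replicate 1, at 38.8 CPM against 48.3 to 49.8 CPM. TEAD3 was high in 3D-primed replicate 4, at 51.2 CPM against 44.9 to 46.0 CPM. The log2 ratio of CCN1 to CCN2 was high in 2D-primed replicate 3, at -2.06 against -2.37 to -2.36. The log2 ratio of AJUBA to LIMD1 was low in 2D-primed replicate 1, at 3.58 against 3.78 to 3.81.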

How the results depend on the processing

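Under all 15 alternatives 6 targets were called lower and 3 higher, while the number of genes called ran from 8357 to 9070 (8916 as reported). Of 150 log2 fold changes of single targets, 147 kept their direction and their side of the threshold. The 3 others were all of AJUBA, which stayed uncalled with its log2 fold change at 0.020 with total counts, 0.043 with upper quartile and, with libraries left out in turn, from -0.040 to 0.0022, the latter without 2D-primed replicate 2. Leaving out libraries moved AXL from -3.12 to -2.58 and ANKRD1 from -3.59 to -3.21. The scalings moved the median of all genes by no more than 0.051. Counting only listed genes that reached 10 counts in 2 libraries of each group, chosen after the data were seen, changed the numbers lower from 7 to 6 for the other signature genes, from 14 to 13 for SRF targets and from 8 to 7 for immediate early genes. The log2 ratio difference of AJUBA to LIMD1 ran from -0.0044, without 2D-primed replicate 1, to 0.0766 with libraries left out, and the cause was not tested.

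Same-numbered libraries did not deviate together (correlations -0.0433, -0.014, 0.0574 and 0.00617), nor did every library correlate best with its own number, so the numbers were not taken as pairs. With the replicate block 8490 genes were called. The difference of the CCN1 to CCN2 ratio with the replicate block had a mean of -3.03 and was negative in 4 of 4 pairs, with an exact sign-flip p of 0.12, the smallest that 4 pairs can give. The ratio of AMOTL2 to AMOTL1 was not computed, because AMOTL1 had 0 counts in 1 library.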
